A study of Homo sapiens with 24 samples.

Results

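Fraction 3 of a sucrose density gradient was compared between 2 rescue genotypes of DIS3 in 293T cells, a human embryonic kidney line. The comparison rests on 6 of the 24 libraries of the study, chosen by their labels alone: 3 of the genotype D146N and 3 of the genotype WT. In both genotypes the cells carried the same knockdown of endogenous DIS3, made with the hairpin DIS3-sh2. They then carried a rescue construct, DIS3 WT in one genotype and DIS3 D146N in the other. Library preparation began from cytoplasmic RNA that had been depleted of ribosomal RNA. The labels give no vector, promoter or clone for the rescue, and no library without knockdown was analysed here. The 3 libraries of a group were described as biological replicates, without saying what separated them, so p-values measure only the spread between libraries of a group. That spread was estimated over all 24 libraries.

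DIS3 is the catalytic ribonuclease of the RNA exosome, the complex that degrades and trims RNA from its 3′ end. Its exonuclease centre removes nucleotides one at a time, and its second active site, in the PIN domain, cuts RNA internally. D146N replaces an aspartate of that endonuclease site. In a sucrose gradient, free RNAs and small ribonucleoproteins stay near the top, whereas ribosomes and polysomes travel toward the bottom, so a fraction samples particles of one size range rather than the RNA content of a cell. Whether fraction numbers count from the top or the bottom is not given in the labels.

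The fraction 3 libraries of the genotypes did not resemble each other as much as they resembled the far fractions of the other genotype. Across genes, the 3 D146N fraction 3 libraries had a Spearman rho of 0.964 to 0.965 with the mean of WT fraction 7, and of 0.875 to 0.878 with the mean of WT fraction 3. The WT fraction 3 libraries had a rho of 0.984 with D146N fraction 7 and of 0.88 to 0.882 with D146N fraction 3. With the other libraries of their own genotype and fraction, rho was 0.978 to 0.979 for D146N and 0.987 for WT. These values describe the libraries and are not a test. A difference in genotype and a difference in how the gradients were numbered cannot be told apart, so every difference below is one between these 2 sets of libraries and none is assigned to D146N.

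Library totals ran from 24657289 to 27372073 counts in D146N fraction 3 and from 24826314 to 27011503 counts in WT fraction 3. The 10 most abundant gene rows held 76.6% ± 0.23 of the counts in D146N and 52.1% ± 0.67 in WT (SD, n = 3). Among the libraries outside this contrast that entered the same fit, WT fraction 8 replicate 3 stood apart from replicates 1 and 2 of its group, with 65.6% of counts in the top 10 rows against 71.1% and 71.3%, and a TMM factor of 0.531 against 0.375 and 0.371. Some results that change without it are given with both values. Counts of other gene groups given once also shifted without it. Because the top rows held unequal shares, each value is given on up to 2 scales. Counts scaled to the library total (CPM) give the share of a library that a gene took. Fold changes from edgeR after TMM normalization are relative to the typical gene, and the 2 scales differ by 2.78 log2 units in this comparison. The median gene stood at a log2 fold change (D146N over WT) of -0.10 after TMM and at -2.85 on library totals. The typical gene and equal CPM, which lies 2.78 log2 units above it after TMM, form the 2 lines used below. A gene between these lines was therefore above the typical gene in D146N and still took a smaller share of the library.

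DIS3, the targeted gene (chromosome 13, 72752169 to 72781900 in GRCh38.p14), was read in every library. Its level was 7.79, 8.33 and 9.63 CPM in D146N fraction 3 and 91.4, 112.2 and 91.4 CPM in WT fraction 3. The groups did not overlap. After TMM its log2 fold change was -0.74 (SE 0.11, adjusted p = 1.04e-06 by edgeR's quasi-likelihood test), and on library totals it was -3.52. Against WT fraction 7, where DIS3 stood at 4.94 ± 0.362 CPM (SD, n = 3), the D146N fraction 3 libraries were higher by 0.79 on the log2 scale. A gene count does not separate the endogenous transcript from the rescue transcript, so these values do not measure the knockdown.

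Of 18907 genes tested, 9400 differed at an adjusted p under 0.05 (49.7%), of which 4877 were higher in D146N (25.8%) and 4523 were lower (23.9%). At least a 2-fold change was found for 3806 higher genes (20.1%) and 1016 lower genes (5.37%). The count of lower genes at 2-fold was 1656, 1571 and 1524 without WT replicate 1, 2 and 3. On library totals 16745 genes differed (88.6%), 739 higher (3.91%) and 16006 lower (84.7%), with 485 (2.57%) and 15547 (82.2%) at 2-fold. On both scales 739 genes were higher and 4523 were lower, while 2504 were higher after TMM and lower on library totals. Every gene lower after TMM was thus also lower on library totals, so for a lower gene the second scale is not further evidence. Likewise every gene higher on library totals was higher after TMM. Without WT fraction 8 replicate 3, 10022 genes were called after TMM, 5086 higher and 4936 lower. After TMM, the D146N libraries lay above all WT libraries in 29% of the genes tested and below them in 30.6%. Genes taken from the ranking had to have no overlap, so for them it is not further evidence. Members of each group below are read against the shares of all genes.

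**Figure D1:**
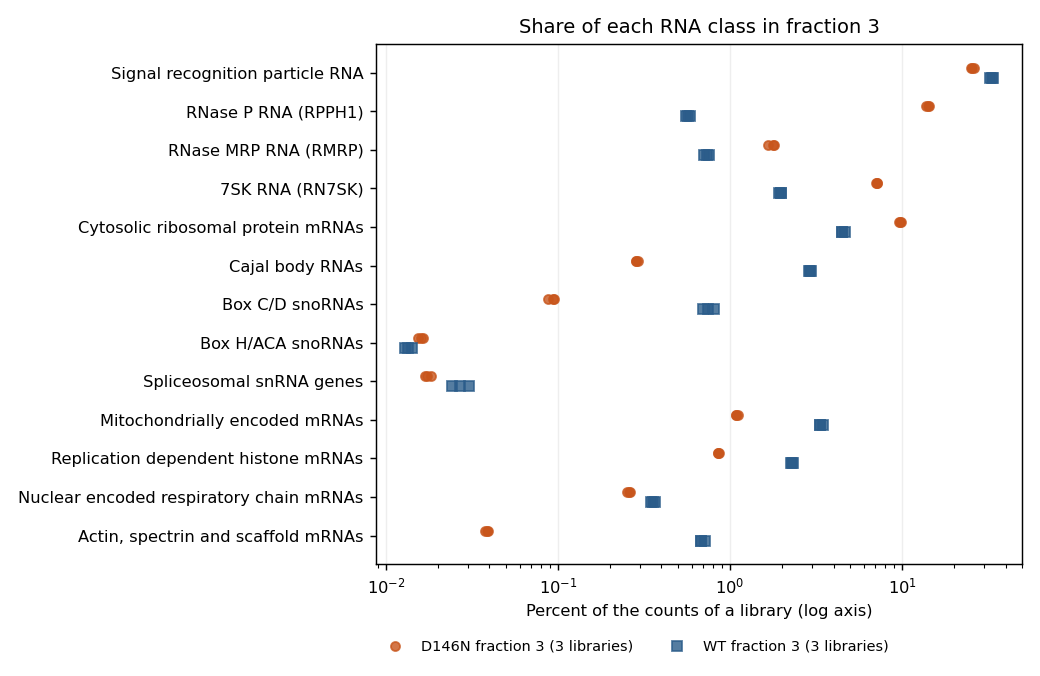
Share of the counts of each fraction 3 library (x axis, percent, log scale) taken by 13 RNA classes, with 1 point per library. In each class the 3 D146N points and the 3 WT points do not overlap; RPPH1 stands at 14.1% against 0.572%, and the actin, spectrin and scaffold mRNAs at 0.0385% against 0.691%.

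The RNA of RNase P, which trims the 5′ end of transfer RNA precursors, showed the widest gap among the abundant RNAs. RPPH1 (chromosome 14, 20343071 to 20343411) stood at 141800, 137600 and 143300 CPM in D146N and at 5730, 5855 and 5574 CPM in WT. All 3 D146N libraries lay above all 3 WT libraries, which the ranking required, by 24.6-fold in mean CPM. Its log2 fold change was 7.40 after TMM (SE 0.18, adjusted p = 6.05e-28, edgeR) and 4.62 on library totals. RMRP, the related RNA of RNase MRP, which takes part in ribosomal RNA processing, stood at 17420 ± 755 CPM in the D146N libraries and at 7309 ± 205 CPM in the WT libraries (SD, n = 3), or at 4.03. on the log2 scale after TMM RN7SK, the scaffold that holds the elongation factor P-TEFb inactive, stood at 71090 ± 609 and 19630 ± 285 CPM, a log2 fold change of 4.63. All 3 were higher on both scales. Against WT fraction 7, RPPH1 differed by 0.06 (adjusted p = 0.815), RMRP was lower by 0.86 on the log2 scale and RN7SK higher by 0.72.

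Of the listed mRNAs for proteins that bind these RNAs, 0 were higher on both scales, against 3.91% of all genes tested. After TMM, 25.8% of all genes tested were higher and 23.9% lower. Of 11 mRNAs for RNase P and MRP proteins, 6 were higher after TMM, 0 were lower and 5 did not pass (7, 1 and 3 without WT fraction 8 replicate 3), with a median log2 fold change of 0.86 that became -1.91 on library totals. POP7 stood at 2.98 (0.20 on library totals) and RPP21 at 2.21 (-0.57 on library totals). Of 7 mRNAs for partners of 7SK, 4 were lower, among them LARP7 at -0.69. HEXIM2 alone was higher, at 1.24, and stood at -1.53 on library totals. Its call was lost without D146N replicate 1 (0.71, adjusted p = 0.204) and without WT replicate 3 (0.83, adjusted p = 0.0724, both edgeR).

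The RNA of the signal recognition particle, which brings ribosomes that make secreted proteins to the endoplasmic reticulum, was the most abundant class in both groups. Its 3 genes took 25.5%, 26.1% and 25.1% of counts in the D146N libraries and 33.8%, 33.2% and 32.5% in the WT libraries. The share was lower in all 3 D146N libraries, and the exact two-sided permutation p was 0.1, the smallest that 3 against 3 allows. The total also counted second rows of abundant RNAs such as RPPH1, RN7SK and, judged from shares of counts, RN7SL2. Together these rows raised the total more in D146N than in WT. The share without those second rows was not computed, so the size of this gap depends on them. After TMM the same RNAs were higher: RN7SL1 by 2.44, RN7SL2 by 2.31 and RN7SL3 by 2.32, against -0.34, -0.47 and -0.45 on library totals. These 3 genes are near-identical, so reads may be split among them. Of 6 mRNAs for proteins of the particle, SRP19 (1.84) and SRP14 (0.88) were higher after TMM, although on library totals they stood at -0.94 and -1.90. SRP54 (-0.64), SRP72 (-0.48) and SRP68 (-0.28) were lower on both scales, the last of these not without D146N replicate 3 (-0.27, adjusted p = 0.0812, edgeR) or in the fit of 6 libraries (-0.21, adjusted p = 0.0576). Y RNAs, small partners of the Ro protein, and vault RNAs were few: of 6 tested, 3 were lower, among them RNY1 (-1.09) and RNY3 (-0.91), and VTRNA1-1 (1.72, but -1.05 on library totals) was the 1 higher. Among all genes tested, 23.9% were lower and 25.8% higher. Levels in D146N were low, at 0.731 to 1.3 CPM for RNY1, 0.365 to 0.649 for RNY3 and 0.933 to 1.61 for VTRNA1-1.

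**Figure D2:**
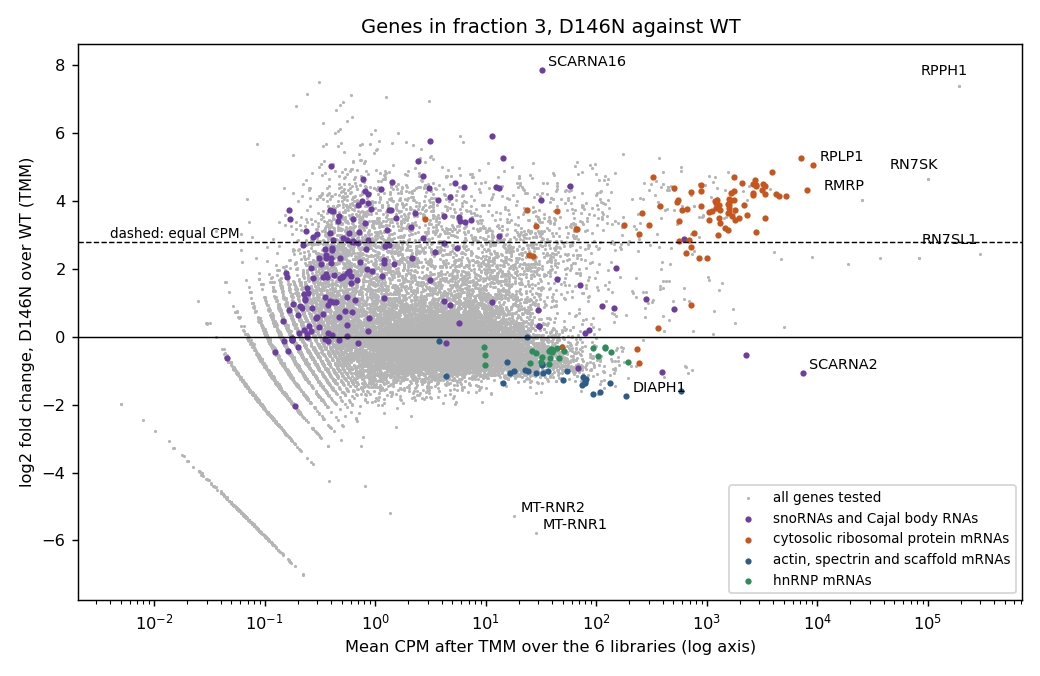
Log2 fold change (D146N over WT, TMM) of every gene tested in fraction 3 against its mean TMM CPM over the 6 libraries (log axis), with 4 gene groups in colour. The solid line marks the typical gene and the dashed line, at 2.78, equal CPM in both genotypes; most ribosomal protein mRNAs lie above the dashed line, and all hnRNP mRNAs lie below the solid line.

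SCARNA16, a guide RNA that resides in Cajal bodies and directs modification of small nuclear RNAs, had the second largest fold change of the genes ranked. It stood at 25.2, 22 and 23.1 CPM in D146N and at 0.926, 0.456 and 0.666 CPM in WT. The groups did not overlap, which the ranking required, and the mean ratio was 34.3-fold. Its log2 fold change was 7.87 after TMM (SE 0.28, adjusted p = 1.82e-15, edgeR) and 5.10 on library totals, but against WT fraction 7 it was lower, at -2.35. MIR6516 had the largest fold change, 7.88, and SNHG20 stood at 4.77, but neither is separate evidence. The annotated MIR6516 hairpin (chr17:77089417-77089497, plus strand, GRCh38.p14, RefSeq) has 77 of its 81 bases inside SCARNA16 (chromosome 17, 77089307 to 77089493), and both lie within SNHG20. The hairpin is shown because it runs through the 3′ end of the guide RNA, and its capitals mark an ACA triplet 3 bases before the end of SCARNA16, the place of the ACA box in this class of RNA.

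MIR6516 hairpin: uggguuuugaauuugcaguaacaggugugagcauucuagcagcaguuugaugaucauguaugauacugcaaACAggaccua

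Other members of the class did not move together. Of 15 Cajal body RNAs tested, 10 were higher after TMM and 3 were lower, and on both scales 2 were higher and 3 lower. SCARNA2, the most abundant, stood at 1705, 1807 and 1723 CPM in D146N and at 24820, 25360 and 25070 CPM in WT. It was lower in all 3 D146N libraries, and its log2 fold change was -1.07 (SE 0.10, adjusted p = 1.71e-11, edgeR). SCARNA9 stood at -1.05 and SCARNA17 at -0.91. SCARNA7 was higher after TMM, at 2.87, and differed by 0.09 on library totals (adjusted p = 0.229). Because SCARNA2 carried most of the counts, the class as a whole took 0.287% of the counts in D146N and 2.9% in WT, while its median member stood at 1.11 after TMM and at -1.66 on library totals.

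Small nucleolar RNAs, which guide modification of ribosomal RNA, were mostly above the typical gene in D146N. Of 76 box H/ACA RNAs tested, 53 were higher and 0 lower, with a median of 2.41 (-0.34 on library totals), and 20 were higher on both scales. SNORA73B, which is needed for ribosomal RNA processing, stood at 38.9, 40.2 and 43.1 CPM in D146N and at 13.8, 13.4 and 11.1 CPM in WT, a log2 fold change of 4.45. SNORA53 (5.92) and SNORA23 (5.26) were also higher on both scales. Of 86 box C/D RNAs tested, 51 were higher and 1 lower, with a median of 1.75 (-0.98 on library totals). SNORD17 stood at 4.02 and SNORD46 at 4.42. The exception was SNORD3A, the U3 RNA of early ribosomal RNA cleavage, at 687 ± 34.1 CPM in the D146N libraries and 6778 ± 523 CPM in the WT libraries (SD, n = 3), or at -0.53 on the log2 scale after TMM. U3 made up most of the class, whose share was 0.0924% in D146N and 0.752% in WT. Genes for spliceosomal small nuclear RNAs were higher in 30 of 39 and lower in 2 after TMM, with a median of 2.50, which became -0.28 on library totals.

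Transcripts that host these guide RNAs in their introns were higher in 28 of 31, with 1 lower and 2 not passing, and a median of 2.45 (-0.32 on library totals). GAS5 stood at 1104 ± 12.7 CPM in the D146N libraries and at 596 ± 15.6 CPM in the WT libraries (SD, n = 3), or at 3.67. on the log2 scale after TMM ZFAS1 stood at 4.32, EPB41L4A-AS1 at 3.94 and TAF1D at 3.35. These 4 were higher on both scales. SNHG22 was the only host of the list that was lower, at -0.87. It contains SCARNA17, given above at -0.91, which stood at 17.5 CPM of the 30.1 of SNHG22 in D146N and at 225 of 379 CPM in WT, so the pair is not separate evidence.

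mRNAs of cytosolic ribosomal proteins formed a large group above both lines. They took 9.65%, 9.89% and 9.79% of counts in the D146N libraries and 4.46%, 4.48% and 4.67% in the WT libraries. Of 87 tested, 82 were higher after TMM and 3 lower. Their median log2 fold change was 3.74, and 70 were higher on both scales (80.5%, against 3.91% of all genes tested). The median on library totals was 0.96.

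Among them, mRNAs of the ribosomal stalk, which recruits translation factors, were led by RPLP1 (chromosome 15, 69452818 to 69456205). It stood at 6344, 6632 and 6454 CPM in D146N and at 1312, 1304 and 1366 CPM in WT, with no overlap, which the ranking required. Its log2 fold change was 5.07 (SE 0.16, adjusted p = 1.29e-24, edgeR) and 2.29 on library totals. RPLP2 stood at 4.45. RPLP0 was higher after TMM, at 2.31, but at -0.47 on library totals, where it did not pass. Its level was 509, 518 and 535 CPM in D146N and 695, 720 and 753 CPM in WT, without overlap. That fit also drew on WT fraction 8, where RPLP0 stood at 549, 544 and 3940 CPM. RPL12, which sits at the base of the stalk, stood at 5040, 5068 and 5080 CPM in D146N and at 866, 895 and 933 CPM in WT, a log2 fold change of 5.27. The pseudogene rows RPL12P4 (5.38) and RPL12P16 (5.27) share its sequence and are not separate evidence, nor is NBEAL1 (4.42), which contains RPL12P16. Other large subunit mRNAs included RPL26 at 4.72 and RPL29 at 4.61, and small subunit mRNAs included RPS12 at 4.84 and RPS9 at 3.98.

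The exceptions were 3 mRNAs that were lower, among them that of the paralog RPL7L1, and 2 that did not pass. RPL4 stood at 64.5, 65.6 and 69.0 CPM in D146N and at 764, 769 and 812 CPM in WT, a log2 fold change of -0.78 (adjusted p = 1.34e-08, edgeR). RPL3, of the peptidyl transferase region, stood at -0.36 and RPL7L1 at -0.29. All 3 were lower on both scales. RPL5 (0.26, and -2.51 on library totals) and RACK1 (0.95, and -1.83 on library totals) did not pass after TMM, but both passed in a fit of the 6 libraries alone (0.34 and 1.03) and without WT fraction 8 replicate 3 (0.25 and 0.93). Against WT fraction 7 the 87 ribosomal protein mRNAs had a median of -0.28.

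Ribosomal protein mRNAs are known for a 5′ terminal oligopyrimidine tract, a C at the start site followed by a run of pyrimidines, through which their translation is controlled together. Several translation factors carry it too. The windows below run from 30 bases before the RefSeq start to 20 after it (GRCh38.p14) and are shown to set mRNAs that were higher beside mRNAs that were lower. Capitals mark a run of 5 or more C or T that begins with C within 3 bases of the start on the transcript strand. RPLP1 (chr15:69452788-69452837, plus strand), RPL12 (chr9:127451387-127451436, minus), RPS12 (chr6:132814539-132814588, plus), RPL26 (chr17:8383174-8383223, minus) and TPT1 (chr13:45341164-45341213, minus) were higher. RPL3 (chr22:39319604-39319653, minus), EEF1A1 (chr6:73521013-73521062, minus), EEF2 (chr19:3985444-3985493, minus), DIAPH1 (chr5:141618981-141619030, minus) and AHNAK (chr11:62545807-62545856, minus) were lower.

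RPLP1: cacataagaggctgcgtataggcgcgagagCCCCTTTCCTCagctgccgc
RPL12: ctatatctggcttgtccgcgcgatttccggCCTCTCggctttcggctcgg
RPS12: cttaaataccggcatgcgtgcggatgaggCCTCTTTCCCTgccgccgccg
RPL26: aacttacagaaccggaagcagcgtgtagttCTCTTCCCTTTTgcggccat
TPT1: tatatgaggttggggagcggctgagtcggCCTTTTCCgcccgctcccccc
RPL3: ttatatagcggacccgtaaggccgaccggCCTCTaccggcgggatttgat
EEF1A1: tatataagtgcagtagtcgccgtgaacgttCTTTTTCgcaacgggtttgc
EEF2: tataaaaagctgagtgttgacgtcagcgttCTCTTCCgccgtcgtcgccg
DIAPH1: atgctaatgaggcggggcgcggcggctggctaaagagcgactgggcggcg
AHNAK: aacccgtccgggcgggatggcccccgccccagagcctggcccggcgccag

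The run was found at 13.1% of 27305 RefSeq promoters and at 50 of 69 ribosomal protein genes with a promoter in the table (72.5%). Ribosomal protein genes with the run had a median log2 fold change of 3.76 and those without it 3.70. Of 12 translation factor genes of the list with a promoter in the table, 9 held the run, of which 4 were higher and 4 lower. Among 10881 other protein coding genes the median was -0.25 with the run and -0.22 without it. A match to these letters describes the sequence at the start and does not show that the tract is used.

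mRNAs of translation factors and other TOP mRNAs fell on both sides. Of 18 tested, 6 were higher after TMM and 8 lower (7 and 10 without WT fraction 8 replicate 3), with a median of -0.19. Among all genes tested, 25.8% were higher and 23.9% lower. TPT1, which encodes the small translationally controlled tumor protein, stood at 976, 1001 and 1023 CPM in D146N and at 585, 597 and 601 CPM in WT, a log2 fold change of 3.53. NACA (3.31) and BTF3 (3.48), the subunits of the nascent polypeptide associated complex, and EEF1B2 (3.03), the exchange factor of elongation factor 1, were higher on both scales as well. EEF1A1, which delivers transfer RNAs to the ribosome, stood at 166, 165 and 165 CPM in D146N and at 2081, 2109 and 2146 CPM in WT, and its log2 fold change was -0.90 (SE 0.09, adjusted p = 7.97e-11, edgeR). EEF2, the translocation factor, stood at -0.85, EEF1G at -0.97 and EIF3L at -0.91. The elongation factor 1 complex was thus divided, with EEF1B2 above both lines and EEF1A1 and EEF1G below both.

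**Figure D3:**
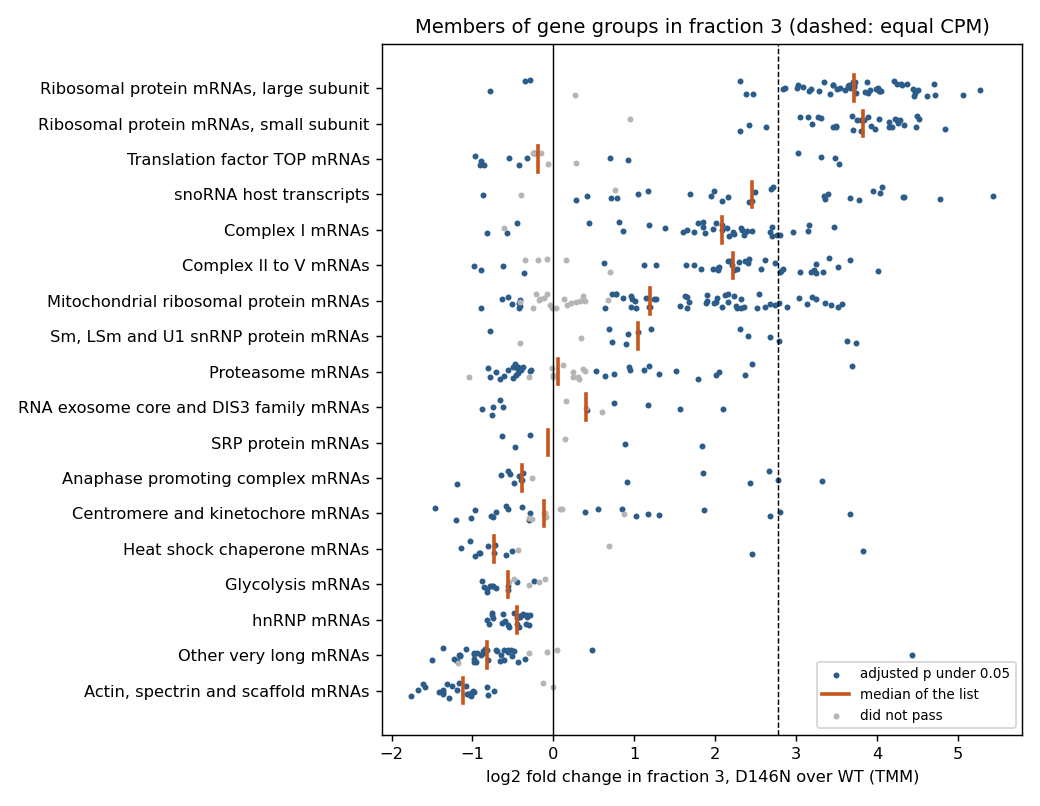
Log2 fold change in fraction 3 (x axis, D146N over WT, TMM) of each tested member of 18 gene groups, with 1 point per gene and a bar at the median. The solid line marks the typical gene and the dashed line equal CPM; ribosomal protein groups have medians of 3.72 and 3.82, hnRNP mRNAs -0.45, and actin, spectrin and scaffold mRNAs -1.12.

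Within several other multi-subunit assemblies the mRNAs were likewise found on both sides, as were all genes tested (25.8% higher and 23.9% lower). In the anaphase promoting complex, the ubiquitin ligase that starts anaphase, 6 of 16 mRNAs were higher after TMM and 9 lower. ANAPC11, its RING subunit, stood at 27.6, 28.0 and 27.9 CPM in D146N and at 19.3, 18.2 and 19.8 CPM in WT, a log2 fold change of 3.32. ANAPC15 (2.77), CDC26 (2.67) and ANAPC16 (2.43) were above the typical gene, and stood at -0.00, -0.11 and -0.35 on library totals. ANAPC2, the cullin subunit, stood at 9.73, 9.46 and 8.16 CPM in D146N and at 143, 152 and 133 CPM in WT, a log2 fold change of -1.19. Of 30 centromere and kinetochore mRNAs, 10 were higher and 12 lower, and they ran from CENPF, a very large kinetochore protein, at -1.46 to CENPX, a small histone fold protein, at 3.66.

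In the proteasome 15 of 44 mRNAs were higher after TMM and 17 lower (19 and 18 without WT fraction 8 replicate 3), with a median of 0.06. Of all genes tested, 25.8% were higher and 23.9% lower. The subunit families differed in their counts, a split made after the values were seen. Of 15 mRNAs for the core particle, 9 were higher and 1 lower, with PSMA2 at 1.79 (-0.99 on library totals) and PSMB10 at 3.69 (0.92). Of 6 mRNAs for the ATPases that unfold substrates, 6 were lower, with PSMC3 at -0.66, and of 14 for the other regulatory subunits 8 were lower and 1 higher, with PSMD1 at -0.80. Of 4 mRNAs for assembly chaperones 3 were higher, with PSMG3 at 2.01 (-0.76 on library totals). On library totals the medians of these 4 families were -1.84, -3.33, -3.19 and -0.58.

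Of 13 mRNAs for core subunits of the RNA exosome and DIS3 family nucleases, 5 were higher after TMM and 5 lower (7 and 5 without WT fraction 8 replicate 3), against 25.8% and 23.9% of all genes tested, and on library totals all 13 were lower. EXOSC1, a cap subunit, stood at 12.9, 13.7 and 14.8 CPM in D146N and at 22.4, 22 and 21.8 CPM in WT, a log2 fold change of 2.1 that became -0.68 on library totals. EXOSC4 (1.56, and -1.22 on library totals) and EXOSC8 (1.16, and -1.61) of the ring were higher after TMM, whereas EXOSC9 (-0.88) and EXOSC6 (-0.76) of the same ring were lower on both scales. The nuclear exonuclease EXOSC10 stood at -0.63 and the cytoplasmic DIS3L at -0.67, while DIS3L2, which works without the exosome, stood at 0.74 (-2.03 on library totals, and 0.45 at an adjusted p of 0.0705 by edgeR without WT replicate 3). Of 14 mRNAs for exosome cofactors, 2 were higher and 6 lower, with C1D at 1.47 (-1.31 on library totals), MTREX, the nuclear helicase, at -0.54 and SKIC3 of the cytoplasmic SKI complex at -0.61.

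In the other decay pathways, 10 of 37 mRNAs for decapping, deadenylation and 5′ to 3′ decay were higher after TMM and 18 lower. Of all genes tested, 25.8% were higher and 23.9% lower. The mRNAs of LSM1 to LSM8, the small ring proteins that bind 3′ ends, were higher in 8 of 8 (median 2.22, and -0.56 on library totals), with LSM2 at 3.82 and LSM3 at 2.93. XRN1, the cytoplasmic 5′ to 3′ exonuclease, stood at -0.74. mRNAs for Sm proteins and U1 particle proteins were higher in 12 of 15 and lower in 1 (12 and 2 without WT fraction 8 replicate 3), with LSM10 at 3.73, SNRPD2 at 3.62 and SNRNP70 at -0.79.

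Since the title of the study concerns circular RNA, 2 lists bear on it, although no row of the table named a circular RNA and gene counts were not read as counts of circles. Of 29 genes that host well known circular RNAs, 17 were higher after TMM and 3 lower (median 0.34, and 19 and 5 without WT fraction 8 replicate 3), and 28 of 29 were lower on library totals. Among all genes tested, 25.8% were higher and 23.9% lower after TMM, and 84.7% were lower on library totals. CAMSAP1 (2.51) and UBAP2 (2.19) stood at -0.27 and -0.59 on library totals. FOXO3 (-0.91) and ZNF609 (-0.93) were lower on both scales. Of 21 mRNAs for factors of circular RNA formation and decay, 3 were higher and 15 lower.

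mRNAs of the respiratory chain that are made in the nucleus were above the typical gene but took a smaller share of the library. Of 38 complex I mRNAs, 34 were higher after TMM and 3 lower, with a median of 2.08, and of 44 mRNAs of complexes II to V, 35 were higher and 4 lower, with a median of 2.22. On library totals the medians were -0.70 and -0.56. ATP5PF, a small coupling subunit of ATP synthase, stood at 88.8, 88.6 and 88.0 CPM in D146N and at 39.1, 36.3 and 37.1 CPM in WT, a log2 fold change of 4.02. COX5A (3.52) and NDUFV2 (3.46) were also higher on both scales. The catalytic ATP synthase subunits went the other way, with ATP5F1B at -0.89 and ATP5F1A at -0.98. Mitochondrial ribosomal protein mRNAs were higher in 51 of 78 and lower in 8, with a median of 1.19 (-1.59 on library totals), MRPL11 at 3.24 and MRPL14 at 3.42.

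RNAs made in the mitochondrion took 1.1% of counts as mRNA in D146N and 3.37% in WT. Of 13 such mRNAs, 9 were higher after TMM and 0 lower (12 and 1 without WT fraction 8 replicate 3), with MT-CO2 at 2.50, MT-ND3 at 2.22 and MT-CO1 at 0.29, and these stood at -0.28, -0.56 and -2.49 on library totals. MT-CO1 did not pass without WT replicate 1 (0.15), 2 (0.16) or 3 (0.18). The mitochondrial ribosomal RNAs, a target of the depletion kit, had the lowest fold changes of the genes ranked. MT-RNR1 stood at 0.325, 0.256 and 0.539 CPM in D146N and at 122, 180 and 117 CPM in WT, and its log2 fold change was -5.77 (SE 2.17, adjusted p = 0.0359, edgeR). It did not pass without D146N replicate 1, 2 or 3 or without WT replicate 2, with adjusted p of 0.094, 0.0997, 0.0897 and 0.0557, nor with no filter on low counts (0.0561). MT-RNR2 stood at -5.28 (SE 1.62, adjusted p = 0.012). The SE is set by all 24 libraries, and MT-RNR1 stood at 0.191, 0.243 and 278 CPM in the 3 libraries of WT fraction 8. Without replicate 3 of that fraction the adjusted p was 0.000526 for MT-RNR1 and 0.000235 for MT-RNR2 (edgeR). In fraction 4 the same contrast gave 0.08 and -0.53. There MT-RNR1 stood at 0.32, 24.1 and 12.7 CPM in D146N and at 79.8, 90.3 and 70.7 CPM in WT, so D146N replicate 1 was near the level of fraction 3 and the other two were well above it. The part of depletion in these values was not tested.

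Replication dependent histone mRNAs, which end in a stem loop and not in a poly(A) tail, were higher in 52 of 58 after TMM and lower in 0, with a median of 1.34 that became -1.44 on library totals. Their share was 0.853% ± 0.00732 in D146N and 2.28% ± 0.034 in WT (SD, n = 3). H3C6 stood at 3.00 (0.23 on library totals, where it did not pass), and H2BC21 at 2.43 (-0.35).

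The ranked genes with the largest fold changes upward also held mRNAs that belong to no list. C1orf53 stood at 5.12, BBLN, a short coiled coil protein, at 5.08 and BOLA3, an assembly factor for iron and sulfur clusters of mitochondria, at 4.98. BBLN stood at 68.5, 71.3 and 66.5 CPM in D146N and at 11.4, 14.5 and 16.0 CPM in WT. NME2, a nucleoside diphosphate kinase, stood at 5.01, and the readthrough row NME1-NME2 (4.88) shares its reads. BRI3, a small membrane protein, stood at 4.73. KRT10, a keratin, stood at 5.02, and the Notch ligand DLL3 at 4.89. The noncoding TP53TG1 stood at 5.12. The ranking took only genes that were higher on both scales and whose groups did not overlap.

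**Figure D4:**
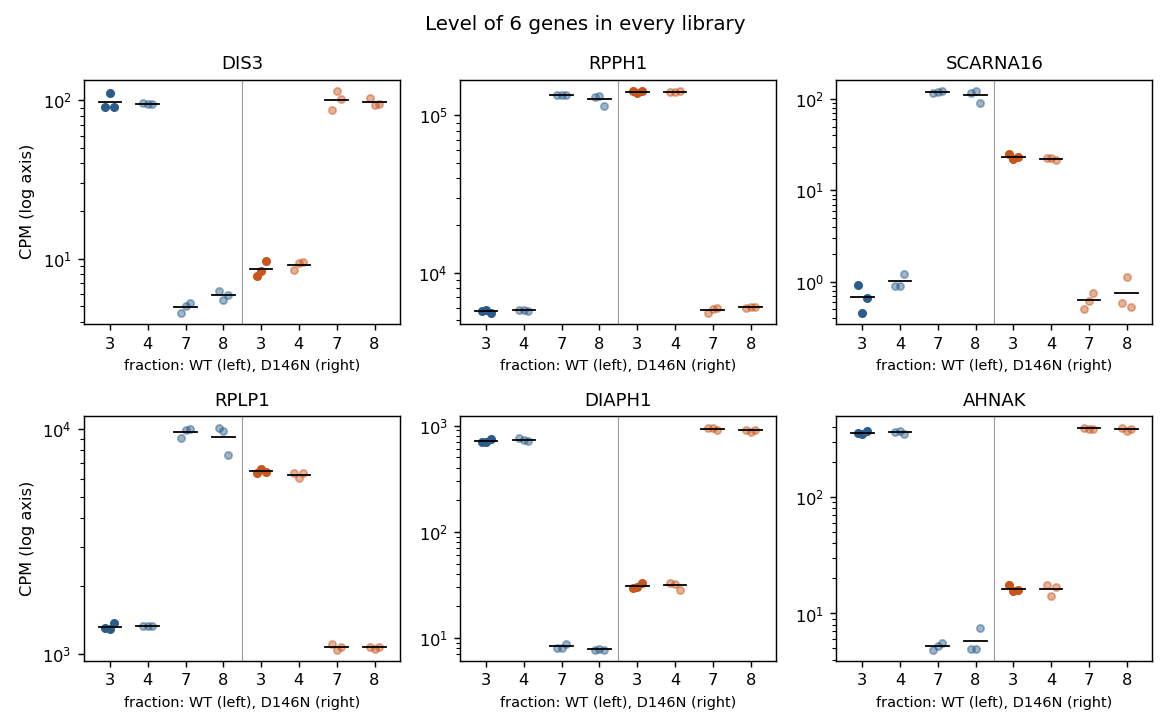
CPM (log axis) of DIS3, RPPH1, SCARNA16, RPLP1, DIAPH1 and AHNAK in each of the 24 libraries, by genotype and fraction, with 1 point per library and a bar at the mean of 3. Fraction 3 is drawn in full colour; on the log axis the D146N fraction 3 libraries lie nearer to WT fractions 7 and 8 than to WT fractions 3 and 4 for each of the 6 genes.

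At the other end, mRNAs of actin regulators, spectrins and scaffold proteins were on the lower side throughout. Of 26 tested, 24 were lower after TMM, against 23.9% of all genes tested, and 0 higher. Their median log2 fold change was -1.12, and their summed share was 0.0385% in D146N and 0.691% in WT. DIAPH1 (chromosome 5, 141515021 to 141619000), a formin that extends actin filaments, stood at 29.7, 30.2 and 33 CPM in D146N and at 703, 697 and 750 CPM in WT. The groups did not overlap, which the ranking required, and the mean ratio was 23.1-fold. Its log2 fold change was -1.75 after TMM (SE 0.10, adjusted p = 4.10e-17, edgeR) and -4.53 on library totals. The other formins of the list, DIAPH2 (-0.13) and DIAPH3 (-0.01), did not pass.

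AHNAK, a giant scaffold protein, stood at 17.5, 15.7 and 15.9 CPM in D146N and at 355, 351 and 372 CPM in WT, a log2 fold change of -1.68. SPECC1 (-1.61), a cytoskeletal crosslinker, AKAP12 (-1.59), an anchor for protein kinase A, MACF1 (-1.36), which links microtubules to actin, and SPTAN1 (-1.32), a spectrin, were lower as well. Against WT fraction 7, 22 of 26 were higher in D146N fraction 3 and 0 lower, with a median of 1.07. DIAPH1 stood at 31.0 ± 1.78 CPM in D146N fraction 3 and at 8.32 ± 0.415 CPM in WT fraction 7 (SD, n = 3), and AHNAK at 16.4 ± 0.974 and 5.23 ± 0.339 CPM.

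Of 39 other very long mRNAs, 33 were lower and 2 higher, with a median of -0.82. TPR, a nuclear pore basket protein, stood at -1.50 and DYNC1H1, the dynein heavy chain, at -1.23. Of the 2 higher, NBEAL1 holds the ribosomal pseudogene named above and SRCAP stood at 0.48 (-2.30 on library totals). Ranked among the lowest were also PEG10 (-1.70), which derives from a retrotransposon, the zinc finger gene ZNF358 (-1.67), CEMIP2 (-1.52), which degrades hyaluronan, and mRNAs of secreted proteins. FN1, fibronectin, stood at 13.2 ± 0.526 CPM in the D146N libraries and at 274 ± 13.2 CPM in the WT libraries (SD, n = 3), or at -1.60. on the log2 scale after TMM APOB, the protein of low density lipoprotein, stood at 18.0 ± 0.991 and 396 ± 6.84 CPM, a log2 fold change of -1.68.

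AFP (-1.66) and ALB (-1.62), the plasma proteins of fetal and adult liver, were lower too. Of 8 hepatocyte markers, 5 were lower, FGB among them at -1.98, and 0 were higher. All 8 had counts in both groups, with a summed level of 6.83 to 8.96 CPM in D146N and of 167 to 169 CPM in WT. Of 7 blood markers, 4 had counts in D146N and 6 in WT, with CD3E at 0 in both and LYZ and PTPRC at 0 in D146N, and the sums were 0.859 to 1.07 and 3.31 to 3.89 CPM. Of 7 fibroblast markers, FAP was at 0 in both groups and COL1A2 and DCN in D146N, and the sums were 0.655 to 1.01 and 12.7 to 14.1 CPM. The 10 markers of 293T cells all had counts in both groups, with sums of 30.7 to 34.6 and 323 to 329 CPM, and VIM (-0.54), KRT8 (-0.60) and LIN28B (-0.49) were among the 5 of 10 that were lower in D146N, with 0 higher. Whether the liver transcripts came from the 293T cells or from other material was not tested. In such bulk libraries of a fraction, fewer cells with a transcript, less of it per cell and a different place in the gradient cannot be told apart.

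Several groups of housekeeping and cell cycle mRNAs lay mostly on the lower side after TMM. hnRNP mRNAs, which encode abundant nuclear RNA binding proteins, were lower in 23 of 23, with a median of -0.45. HNRNPU stood at 51.9, 52.8 and 55.5 CPM in D146N and at 576, 668 and 600 CPM in WT, a log2 fold change of -0.75, and HNRNPM stood at -0.80. Of 17 glycolysis mRNAs, 12 were lower and 0 higher, with ENO1 at -0.79, PKM at -0.86 and GPI at -0.89. DNA replication factors were lower in 15 of 29 and higher in 4, with the helicase subunit MCM7 at -0.98 and the flap nuclease FEN1 at -1.09, but RPA3, the smallest subunit of replication protein A, at 2.46 (-0.32 on library totals). G2/M regulators were lower in 16 of 24 and higher in 3, with MKI67 at -1.31 and UBE2C, a small ubiquitin conjugating enzyme, at 2.41 (-0.37 on library totals).

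Chaperone mRNAs were mostly on the lower side. Of 14 heat shock chaperone mRNAs 10 were lower, with HSP90AB1 at -1.14 and HSPA8 at -1.03, and higher in 2: HSPB1, a small heat shock protein, at 3.83 (1.05 on library totals) and HSPE1, the mitochondrial co-chaperonin, at 2.45 (-0.32). Of 23 mRNAs for endoplasmic reticulum chaperones and translocon subunits, 15 were lower and 4 higher. HSPA5 stood at -1.14 and SEC61A1, the channel subunit, at -0.96, whereas SEC61B, its small partner, stood at 2.71 (-0.06 on library totals). Of 1396 genes of the RefSeq class lncRNA, 696 were higher and 58 lower, with a median of 1.16 (-1.59 on library totals). Of a list of 13 well known long noncoding RNAs, 6 were higher and 6 lower. MALAT1, retained in nuclear speckles, stood at 159 ± 7.15 CPM in the D146N libraries and at 2294 ± 77.9 CPM in the WT libraries (SD, n = 3), or at -1.07 on the log2 scale after TMM, and NEAT1 stood at -0.97.

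The relation to gene length could be described only by gene span, the genomic distance from annotated start to end, since transcript lengths were not used here. Across 13343 protein coding genes, Spearman's rho between span and log2 fold change was -0.1. Among the 3562 with a mean of at least 10 TMM CPM it was -0.3. In that subset the median log2 fold change was 1.45 for the 49 genes of up to 1000 bases, 2.45 for the 143 of 1000 to 3000 bases and 1.09 for the 521 of 3000 to 10000 bases. It was -0.21, -0.43 and -0.27 in the 3 bins of longer genes. Over all 13343 genes the medians from the shortest to the longest bin were 1.52, 0.73, -0.10, -0.28, -0.31 and -0.18. A gene could pass the level filter through 1 genotype alone, so the filter and the fold change are not independent. Genes are not independent replicates, and span includes introns, which mature RNA lacks. Protein size was not measured, so words such as small or giant given to single proteins are background. Whether size goes with direction was not tested.

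**Figure D5:**
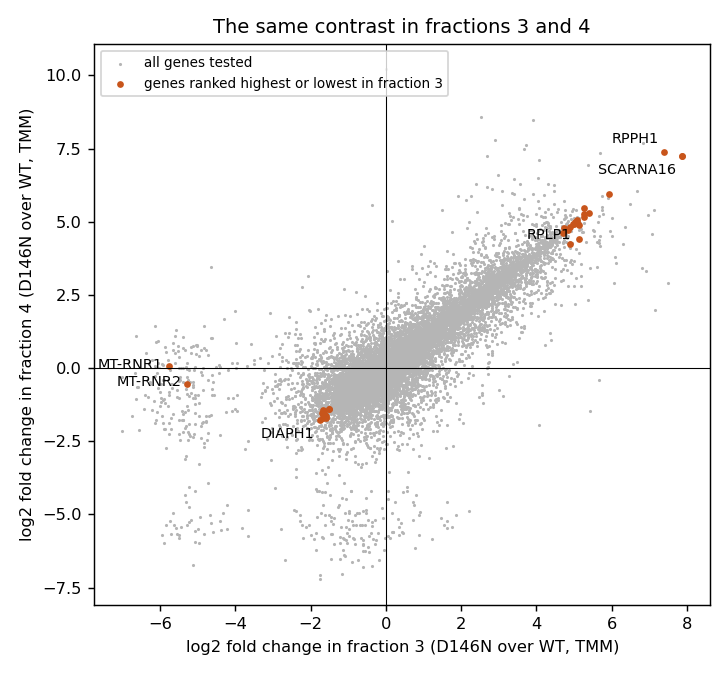
Log2 fold change of D146N over WT in fraction 4 (y axis) against that in fraction 3 (x axis), both after TMM, for each gene tested. The genes ranked highest or lowest in fraction 3 stand close to the diagonal, other than MT-RNR1 and MT-RNR2, which lie at -5.77 and -5.28 in fraction 3 and at 0.08 and -0.53 in fraction 4.

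Fraction 4 held other libraries of the same genotypes, which may come from the same gradients. There 9163 genes differed (48.5%), with 3803 higher (20.1%) and 985 lower (5.21%) at 2-fold. The last count was 1550, 1559 and 1553 without WT replicate 1, 2 and 3 of fraction 4. A set of 7735 was called in both fractions, all with the same direction. These were 82.3% of the genes called in fraction 3 and 84.4% of those called in fraction 4. In fraction 4 RPPH1 stood at 7.39, SCARNA16 at 7.23, RPLP1 at 5.0, DIAPH1 at -1.77 and AHNAK at -1.69. A test of the difference between the fraction 3 and fraction 4 contrasts called 0 genes with edgeR (0%) and 0 with DESeq2, with 850 and 894 genes at an unadjusted p under 0.05. MT-RNR1 and MT-RNR2 were among genes with large differences (-5.86 and -4.75), at unadjusted p of 0.0432 and 0.0353 (edgeR, adjusted p = 1 for both).

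Set against WT fraction 7, the fraction they most resembled among WT libraries together with fraction 8, the D146N fraction 3 libraries differed in 3240 genes (17.1%), with 1932 higher (10.2%) and 1308 lower (6.92%). Of these, 418 were at least 2-fold higher (2.21%) and 186 at least 2-fold lower (0.984%). Without WT fraction 8 replicate 3, 3879 genes were called, 2226 higher and 1653 lower. The gene groups that had stood apart from WT fraction 3 were not all close to WT fraction 7. Histone mRNAs were lower in D146N fraction 3 in 46 of 58 (median -0.94), complex I mRNAs in 21 of 38 (-0.44) and ribosomal protein mRNAs of the large subunit in 22 of 53 (-0.28). Mitochondrially encoded mRNAs were higher in 10 of 13 (median 1.0), as were scaffold mRNAs. ANAPC2 was higher by 2.86, CENPF by 2.28 and TPR by 1.85 on the log2 scale, and RMRP lower. These fractions carry different labels, so this is a description of which groups the resemblance held for.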

How the data were processed

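Ribosomal RNA depleted RNA sequencing libraries were analysed as deposited. The authors' table holds expected counts per gene, which need not be whole, in 61853 Ensembl gene rows for 24 libraries, with no normalization by the authors as far as the sources used here tell. The submitters' processing notes list the aligners HISAT2 2.1.0 and Bowtie2 2.3.5, the counter featureCounts 1.5.1, SAMtools and hg38, without saying what each did. Strand setting and treatment of multiply mapped reads were not given in the sources used here. A gene and its antisense partner, or near-identical copies, may therefore share counts.

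Groups and replicate numbers came from the sample titles. Counts were rounded to whole numbers and scaled to the library total (CPM). Genes were filtered with filterByExpr by group, and edgeR 4.0.16 in R 4.3.3 was fitted with TMM and robust quasi-likelihood to 8 group means over all 24 libraries, with Benjamini-Hochberg adjustment over 18907 genes. The biological coefficient of variation was 13.8%. Adjusted p under 0.05 made a call. Gene groups were described by counts and medians, without a list test. Class shares were compared by exact two-sided permutation of logit shares, whose smallest p is 0.1. The fitting code was tested on simulated data.

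Symbols were found for 99.92% of rows. Positions, spans, promoter windows and the hairpin came from RefSeq (GRCh38.p14), and 16118 of the genes tested had a span.

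Alternatives were library totals, median-of-ratios size factors, TMM without small, host and mitochondrial RNA rows, DESeq2 1.42.0, no filter on low counts, the 6 fraction 3 libraries alone, the same with a replicate block, each library of the groups compared left out in turn and, chosen after seeing the data, the fit without WT fraction 8 replicate 3.

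Ranked genes had an adjusted p under 0.05, at least a 2-fold change, a mean of at least 10 TMM CPM, a gene symbol other than a clone or contig name, no overlap of the groups and the same direction on library totals. The 12 with the largest change each way were taken among all genes and again among protein coding genes, so for these the lack of overlap and the shared direction follow from the rule. Also eligible were DIS3, the 4 members of each list with the smallest p, and any member of lists with under 20 genes. The members, gene lists and this rule were chosen with earlier results of these data known. Named after their values were seen, outside the rule, were SNHG20, SNHG22, SNORD46, SNORD3A, SCARNA2, SCARNA17, RPL3, RPL4, RPL5, RPL7L1, RACK1, ATP5F1A, ATP5F1B, FEN1, XRN1, PSMB10, PSMC3, PSMD1, SRCAP, FOXO3, ZNF609, MACF1, DIAPH2 and DIAPH3.

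Rows with identical counts (a second row each for RPPH1, RN7SK, RMRP and SCARNA2) were named once. Judged from the shares of the most abundant rows, a signal recognition particle RNA gene, named above, also had a second row. Class shares leave the second row out of the class but not out of the total. The second rows therefore enter CPM and values on library totals, which they lower in D146N relative to WT. For a gene near equal CPM, the side of that line depends on them, and this was not recomputed.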

Additional observations from a re-analysis of the deposited data

How the results depend on the processing

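On library totals the fraction 3 contrast called 16745 genes, 739 higher and 16006 lower (485 and 15547 at 2-fold), and fraction 4 called 16650, 714 higher and 15936 lower (479 and 15487 at 2-fold), on a scale where the median gene of fraction 3 stood at -2.85. Other settings called 8754 to 10215 genes in fraction 3. Same-numbered libraries of the genotypes did not deviate together (correlations of 0.001, -0.039 and -0.04 over 3934 genes), so the replicate numbers were not taken as a pairing. With the replicate number as a block, 8754 genes were called (4707 higher, 4047 lower), against 8860 in the same 6 libraries without it. Of the genes named, SRP68 lost its call in the 6 libraries (-0.21, adjusted p = 0.0576 by edgeR) and with the block (-0.20, adjusted p = 0.0727), and RPL5 and RACK1 passed in both. Without WT fraction 8 replicate 3, an alternative chosen after seeing the data, no named gene lost its call or turned, RPL5 and RACK1 passed, and 9788 genes were called in fraction 4.

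Leaving out 1 library, that one included, gave 8530 to 10022 calls in fraction 3, with 4316 to 5086 higher, 4042 to 5340 lower, 3547 to 3846 higher at 2-fold and 1042 to 1656 lower at 2-fold. In fraction 4 it gave 8265 to 9788 calls and 1016 to 1559 lower at 2-fold, the latter 1550, 1559 and 1553 without WT replicate 1, 2 and 3. The difference between fractions 3 and 4 stayed at 0 calls under library totals, no filter and each library left out. Of the class shares, 2 turned when RPPH1, RN7SK, RMRP, the 7SL genes and their identical rows were left out of the total: small nuclear RNA genes (log2 ratio 0.54) and nuclear encoded respiratory chain mRNAs (0.71). This alternative was not run for the classes made of those abundant RNAs themselves. The Spearman correlation between gene span and fold change moved from -0.0993 to -0.302 with a mean of at least 10 TMM CPM.

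On library totals 32 named genes turned to the lower side: RN7SL1 -0.34, RN7SL2 -0.47, RN7SL3 -0.45, VTRNA1-1 -1.05, RPLP0 -0.47, RPL5 -2.51, RACK1 -1.83, MT-CO1 -2.49, MT-CO2 -0.28, MT-ND3 -0.56, EXOSC1 -0.68, EXOSC4 -1.22, EXOSC8 -1.61, DIS3L2 -2.03, C1D -1.31, RPP21 -0.57, HEXIM2 -1.53, SRP19 -0.94, SRP14 -1.90, ANAPC15 -0.0031, ANAPC16 -0.35, CDC26 -0.11, HSPE1 -0.32, SEC61B -0.0638, H2BC21 -0.35, CAMSAP1 -0.27, UBAP2 -0.59, UBE2C -0.37, PSMA2 -0.99, PSMG3 -0.76, SRCAP -2.30 and RPA3 -0.32. SCARNA7 (0.09), POP7 (0.20), H3C6 (0.23) and LSM3 (0.15) no longer passed on that scale. Of genes that did not pass, DIAPH2 ran from -0.42 to 0.0454 with 1 library left out. DIAPH3 was 0.0107 with median-of-ratios factors, 0.0108 with DESeq2, 0.0143 with TMM without small, host and mitochondrial RNA rows, 0.0693 in the 6 libraries and 0.0695 with the block.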
